A study of Homo sapiens with 18 samples.

Results

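The BCL2 family genes described here are BCL2, BCL2L1, MCL1, BAX, BAK1, BCL2L11, BID, BAD, BBC3 and PMAIP1. The rule takes them by gene name alone, and all 10 were found once each among the 58815 genes of the count table. Bulk mRNA libraries were made from the lines LM2, BrM3 and BoM, which are derivatives of the triple-negative breast cancer line MDA-MB-231 that prefer lung, brain and bone as sites of metastasis. In each line a doxycycline-inducible hairpin was expressed, either a control hairpin (shCtrl) or a hairpin against WDR5 (shWDR5), a scaffold protein of chromatin complexes. All 6 groups, the controls included, received doxycycline at 1 μg/mL for 3 days, and each group has 3 libraries harvested at different passages, 18 libraries in all. The cell line label of the brain derivative reads BrM2, the study writes BrM3, and BrM3 is used here. A separate source label names another line than the title does for most libraries and was not used. A single WDR5 hairpin was sequenced, no in vivo sample is among the libraries, all 3 lines share MDA-MB-231 as parent, and differences between the lines are not differences between independent tumours.

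Proteins of the BCL2 family decide whether the outer mitochondrial membrane stays intact. The effectors BAX and BAK1 form pores in that membrane, which release cytochrome c and start the caspase cascade. BCL2, BCL2L1 (BCL-XL) and MCL1 hold the effectors in check and are called pro-survival members. The BH3-only members BCL2L11 (BIM), BID, BAD, BBC3 (PUMA) and PMAIP1 (NOXA) sense stress and bind the pro-survival proteins or the effectors. BAD prefers BCL2 and BCL-XL as partners and NOXA prefers MCL1, whereas BIM and PUMA bind all the pro-survival proteins. Binding runs through a short helix, the BH3 motif, which every member carries.

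The stretches that encode the BH3 core are shown because they are the shared feature by which these otherwise diverse genes form a family. Each line gives 36 bases of the coding strand of the reference transcript (GENCODE release 44, GRCh38), with the 18 bases of the 6 core codons in capitals.
BCL2: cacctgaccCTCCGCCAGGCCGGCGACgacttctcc
BCL2L1: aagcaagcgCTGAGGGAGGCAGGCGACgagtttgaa
MCL1: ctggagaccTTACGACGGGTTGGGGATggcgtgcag
BAX: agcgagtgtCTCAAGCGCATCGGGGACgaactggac
BAK1: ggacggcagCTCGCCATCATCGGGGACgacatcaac
BCL2L11: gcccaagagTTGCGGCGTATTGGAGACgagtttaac
BID: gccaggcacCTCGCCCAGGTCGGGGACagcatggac
BAD: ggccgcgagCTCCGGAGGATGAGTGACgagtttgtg
BBC3: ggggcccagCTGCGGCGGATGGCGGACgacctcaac
PMAIP1: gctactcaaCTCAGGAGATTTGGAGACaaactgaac

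The core pattern was found once in each of the 10 coding sequences, always within a single exon. It lies in exon 2 of BCL2 (chr18:63318352-63318387, minus strand), exon 2 of BCL2L1 (chr20:31721925-31721960, minus), exon 1 of MCL1 (chr1:150578868-150578903, minus), exon 3 of BAX (chr19:48955778-48955813, plus) and exon 4 of BAK1 (chr6:33575390-33575425, minus). Among the BH3-only members it lies in exon 3 of BCL2L11 (chr2:111150094-111150129, plus), exon 4 of BID (chr22:17739418-17739453, minus), exon 3 of BAD (chr11:64271625-64271660, minus), exon 3 of BBC3 (chr19:47226582-47226617, minus) and exon 2 of PMAIP1 (chr18:59902664-59902699, plus). The last core codon is GAC in 9 of the 10, and 4 of the 36 positions hold the same base in all members. The search pattern itself required these 4 bases, through a leucine, an aspartate and a later hydrophobic residue. It also limited the last core codon to GAC or GAT, so neither count is a finding about the family. Over the 45 pairs the stretches share between 33.3% and 66.7% of their bases, most in BAK1 and BID. The coding sequences run from 54 codons in PMAIP1 to 350 in MCL1.

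Library totals ranged from 17485841 to 119667013 counts, and 12081 genes passed the filter on low counts. Levels below are counts-per-million (CPM) values, scaled by the trimmed mean of M values (TMM). The libraries labelled shWDR5 held 18.5%, 25.4% and 21.3% of the WDR5 level of their shCtrl libraries in LM2, BrM3 and BoM. The mesenchymal carcinoma markers VIM, CD44 and AXL were high in every library, at 498 CPM or more. Among the epithelial markers KRT8 and KRT18 were at 194 CPM or more, KRT7 ran from 6.97 to 132 CPM, EPCAM stayed at or below 10.1 CPM and CDH1 at or below 0.60 CPM. Of the receptors that define breast cancer subtypes, ESR1 and PGR stayed at or below 0.72 CPM and ERBB2 ran from 41.5 to 83.4 CPM. Of the markers of other cell types, PTPRC of leukocytes and ALB of liver stayed at or below 1.06 CPM, PECAM1 of endothelium reached 4.67 CPM, PDGFRB of pericytes 10.6 CPM and COL1A1 of fibroblasts 87.1 CPM. In bulk RNA a change of a gene in all cells and a change in the share of cells that express it cannot be told apart. The table holds 0 rows for the spike-in RNA that the study added, so total RNA per cell was not analysed here.

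BCL2L1 and MCL1 were the most abundant members in every group once counts were divided by exon length. In shCtrl cells MCL1 stood at 70.6 ± 3.3 CPM per kilobase for LM2, 78.6 ± 2.3 for BrM3 and 48.3 ± 2.5 for BoM (SD, n = 3). That of BCL2L1 was 70.3 ± 10.3, 57.1 ± 2.2 and 82.8 ± 6.5 in the same order. BCL2, the founding member, had only 1.01 ± 0.12, 1.28 ± 0.12 and 1.73 ± 0.19 CPM per kilobase. Of the summed pro-survival level BCL2 made up 0.72% for LM2, 0.93% for BrM3 and 1.30% for BoM. The order of the leading pair changed between lines. MCL1 and BCL2L1 did not differ beyond their spread in LM2, with a ratio of 1.02 ± 0.19, MCL1 was ahead in BrM3 with a ratio of 1.38 ± 0.07, and BCL2L1 was ahead in BoM with a ratio of 0.59 ± 0.07 (SD, n = 3). These ratios were formed within each library from levels per kilobase.

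Below the leading pair, the effectors and PMAIP1 formed a middle group. In shCtrl cells the level per kilobase of BAX was 38.9 ± 5.1, 25.4 ± 3.0 and 34.6 ± 5.9 CPM in LM2, BrM3 and BoM, and that of BAK1 was 16.6 ± 1.8, 26.97 ± 1.52 and 23.9 ± 1.4 CPM. PMAIP1 stood at 24.7 ± 2.9, 20.95 ± 0.72 and 33.4 ± 6.9 CPM per kilobase, so BAX and PMAIP1 did not differ beyond their spread in BoM. BID followed with 12.2 ± 1.3, 7.28 ± 0.87 and 6.86 ± 0.35 CPM per kilobase. BCL2L11, BAD, BCL2 and BBC3 were the least abundant, all at or below 3.24 CPM per kilobase on average. BAD and BCL2L11 did not differ beyond their spread in any line, because BAD varied between 1.16 and 9.90 CPM over the 9 shCtrl libraries.

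**Figure D1:**
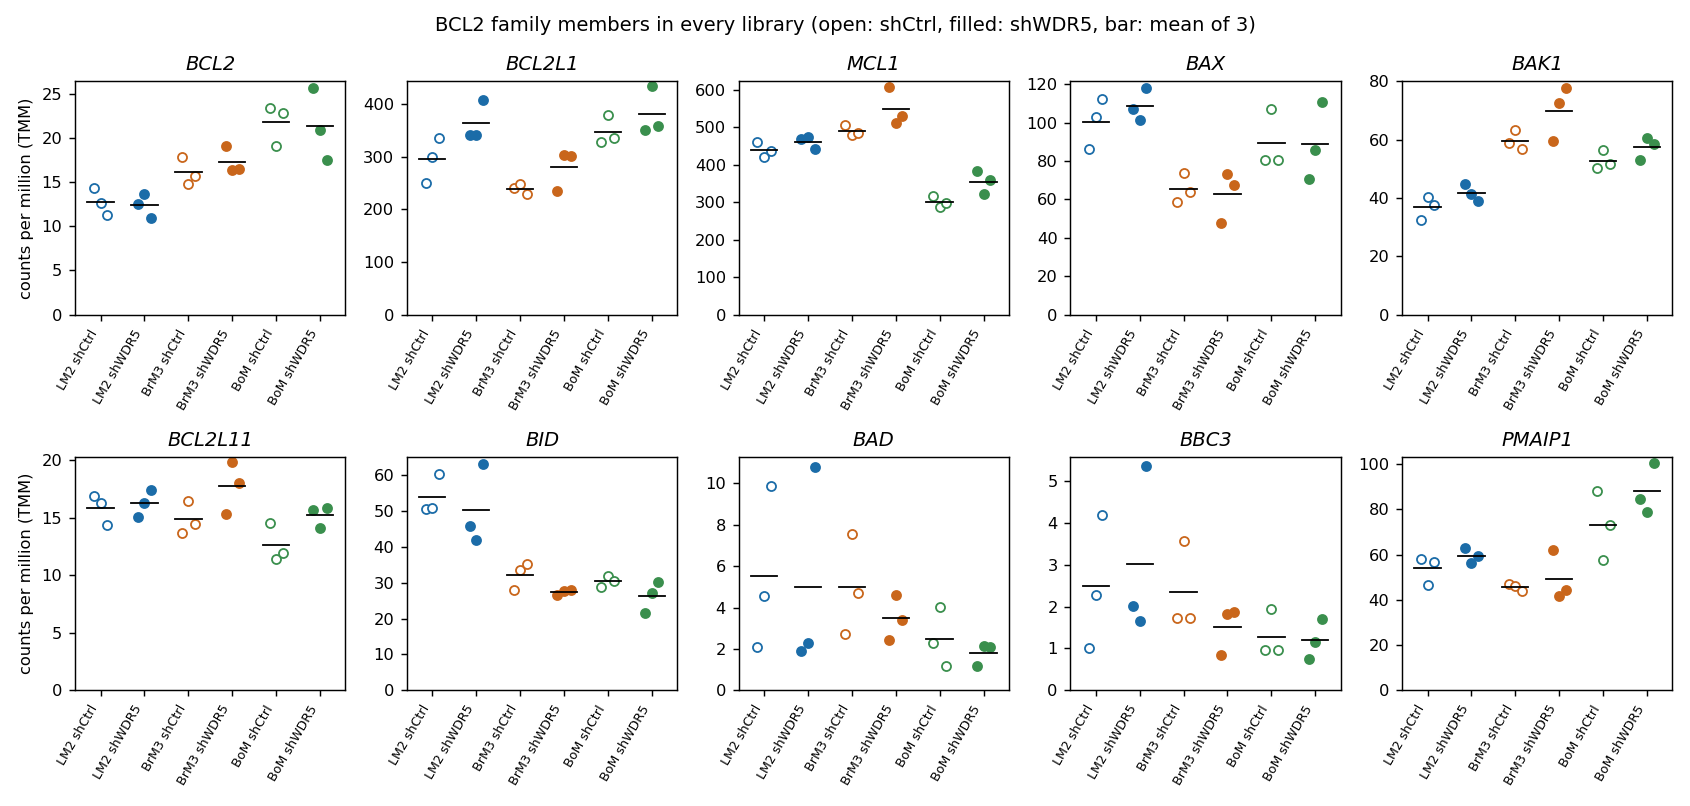
Level of each member in CPM (TMM-scaled, linear axes from 0) in the 18 libraries, by line and hairpin; open circles are shCtrl, filled circles shWDR5 and bars the mean of 3 libraries. BCL2L1 and MCL1 stay at or above 230.2 CPM, BAD and BBC3 at or below 10.8 CPM with a wide spread inside groups, and MCL1 is lower in BoM than in the other lines.

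The first question was whether loss of WDR5 changed the family within each line. No member was called in LM2, BrM3 or BoM by edgeR's quasi-likelihood test at an adjusted p under 0.05. At an unadjusted p under 0.05 the counts were 1, 1 and 2 of the 10 members, beside 2429, 3012 and 3649 of the 12081 genes tested. Over all genes tested, 1.48% were called higher and 4.78% lower in LM2. The shares were 2.87% and 7.87% in BrM3 and 5.41% and 10.7% in BoM. For LM2, BrM3 and BoM the members had median log2 fold changes of 0.08, 0.10 and 0.06, beside medians over all genes tested that lay within 0.02 of 0. DESeq2 called 0, 0 and 1 members higher and none lower. Over all genes it called 409, 638 and 1072 higher and 733, 1130 and 1389 lower. In BoM the deviations of same-numbered libraries of both hairpins correlated at 0.566, 0.323 and 0.145. A replicate block fitted over all 3 lines called MCL1 higher in BoM (0.24, adjusted p = 0.035) and no member lower, beside 11.2% and 15% of all genes.

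BCL2L1 encodes BCL-XL. Its 3 LM2 shCtrl libraries held 249.7, 300.4 and 335.5 CPM and its shWDR5 libraries 342.2, 341.1 and 408.4 CPM. The groups did not overlap, although the highest control and the lowest knockdown library were close. The log2 fold change was 0.30 with a standard error of 0.13 and an adjusted p of 0.18. In BrM3 the values were 240.4, 248.5 and 230.2 CPM in shCtrl and 234.6, 303.4 and 302.1 CPM in shWDR5, so a single knockdown library lay among the controls (log2 fold change 0.23, SE 0.13, adjusted p = 0.29). In BoM they were 327.7, 378.7 and 335.9 CPM against 351.5, 434.0 and 358.0 CPM, and the groups overlapped (0.13, SE 0.13, adjusted p = 0.51).

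MCL1 encodes a short-lived pro-survival protein. In BoM its shCtrl libraries held 317.3, 286.2 and 297.5 CPM and its shWDR5 libraries 383.4, 321.5 and 359.6 CPM. Every knockdown library was above every control, with a log2 fold change of 0.24, an SE of 0.09 and an adjusted p of 0.065. In BrM3 the libraries held 505.6, 478.2 and 483.4 CPM against 607.3, 511.0 and 529.6 CPM, again without overlap (0.17, SE 0.09, adjusted p = 0.24). In LM2 they held 460.5, 419.4 and 437.9 CPM against 469.7, 473.5 and 440.9 CPM, and the groups overlapped (0.07, SE 0.09, adjusted p = 0.73). Lack of overlap in the higher direction was found for BCL2L1 in LM2 and for MCL1 in BrM3 and BoM, that is for 1 of the 10 members in each line, beside 10.7%, 15.8% and 12.8% of all genes tested. No member lay lower without overlap, beside 14.6%, 19.7% and 17.3% of all genes.

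BCL2 itself showed little difference. Its CPM values in BoM were 23.4, 19.05 and 22.8 in shCtrl and 25.7, 20.9 and 17.5 in shWDR5, and its differences on the log2 scale were -0.03, 0.10 and -0.02 for LM2, BrM3 and BoM. The 95% interval of the change in LM2 ran from -0.33 to 0.27, so a change of BCL2 of more than about that size in either direction lies outside it.

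The effectors differed from each other. BAK1 had a positive log2 fold change in each line, 0.18, 0.23 and 0.12 for LM2, BrM3 and BoM (SE 0.11 in each, adjusted p = 0.39, 0.18 and 0.49). Its libraries in BrM3 held 58.8, 63.35 and 56.8 CPM in shCtrl and 59.6, 72.6 and 77.9 CPM in shWDR5. BAX was at 0.11, -0.06 and -0.01 with an SE of 0.17 in each line and adjusted p-values of 0.81, 0.88 and 0.98.

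Among the BH3-only members, BCL2L11 stood at 0.04, 0.26 and 0.27 on the log2 scale for LM2, BrM3 and BoM (SE 0.12 in each, adjusted p = 0.92, 0.20 and 0.16). Its BoM libraries held 14.55, 11.4 and 11.9 CPM in shCtrl and 15.65, 14.1 and 15.9 CPM in shWDR5, with a single control library above the lowest knockdown library. PMAIP1 stood at 0.15, 0.10 and 0.27 (SE 0.15, 0.16 and 0.15), and BID at -0.11, -0.23 and -0.21 (SE 0.15 in each). None of these values passed the test. BAD and BBC3 had standard errors between 0.49 and 0.69, so their changes could not be resolved in any line.

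**Figure D2:**
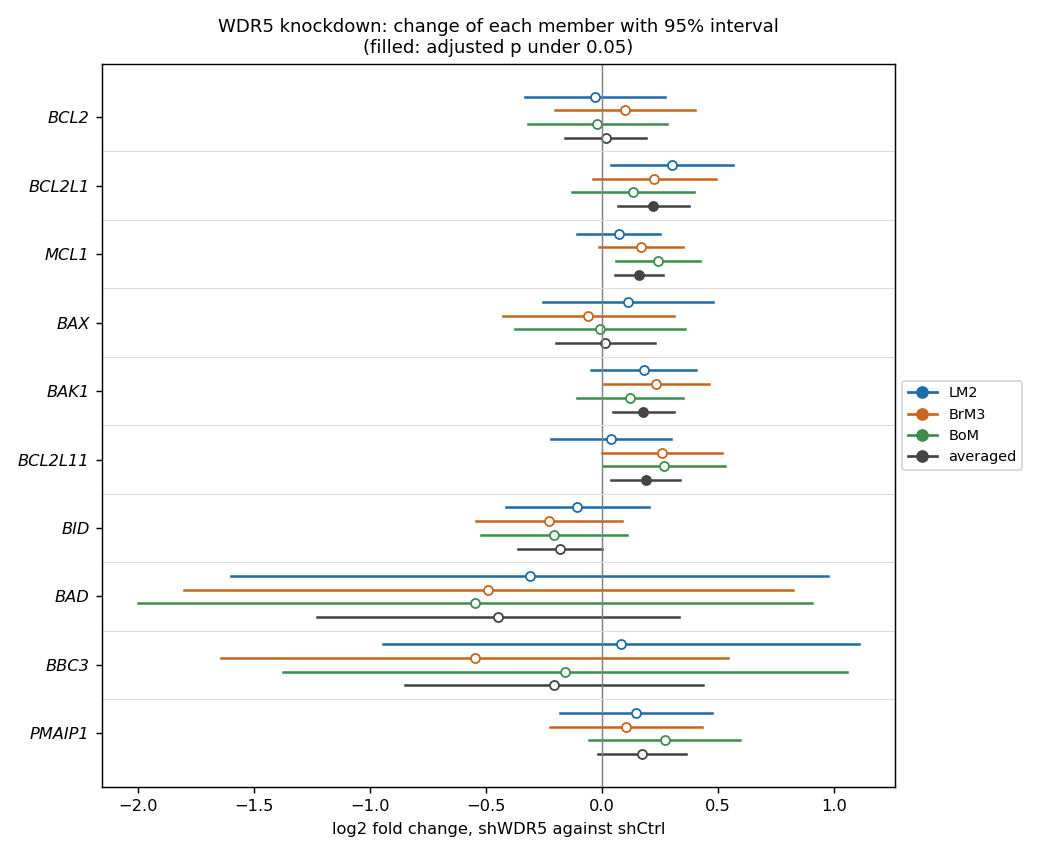
Log2 fold change of each member between shWDR5 and shCtrl libraries in LM2, BrM3 and BoM and averaged over the 3 lines, with 95% intervals; filled points have an adjusted p under 0.05. No point for a single line is filled, and the averaged points of BCL2L1, MCL1, BAK1 and BCL2L11 are.

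Averaged over the 3 lines, 4 of the 10 members were called higher with shWDR5 and none lower, beside 15.6% of all genes called higher and 19.9% called lower. The 4 were BCL2L1 (log2 fold change 0.22, SE 0.07, adjusted p = 0.025), MCL1 (0.16, SE 0.05, 0.018), BAK1 (0.18, SE 0.06, 0.034) and BCL2L11 (0.19, SE 0.07, 0.049). They come from all 3 functional classes, a pair of pro-survival members, an effector and a BH3-only activator. In linear terms BCL2L1 was 1.17-fold higher, MCL1 1.12-fold, BAK1 1.13-fold and BCL2L11 1.14-fold. The other members were not called, with PMAIP1 at 0.17 (adjusted p = 0.15), BID at -0.18 (0.11), BCL2 at 0.02 (0.90), BAX at 0.01 (0.93), BAD at -0.45 (0.36) and BBC3 at -0.21 (0.62).

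Of these calls only that of MCL1 held when each of the 18 libraries was left out in turn, with adjusted p-values between 0.0084 and 0.041. BCL2L1 held in 13 of 18 and was lost without BoM shWDR5 replicate 2 (0.055), BrM3 shCtrl replicate 3 (0.051), BrM3 shWDR5 replicate 2 (0.054) or 3 (0.053), or LM2 shWDR5 replicate 3 (0.051). BAK1 held in 8 of 18, with adjusted p-values up to 0.077 without BoM shCtrl replicate 1 or 3, BoM shWDR5 replicate 2, BrM3 shCtrl replicate 1 or 3, BrM3 shWDR5 replicate 2 or 3, LM2 shCtrl replicate 1, or LM2 shWDR5 replicate 1 or 2. BCL2L11 held in 6 of 18, with values up to 0.11 without BoM shCtrl replicate 2 or 3, BoM shWDR5 replicate 1 or 3, BrM3 shCtrl replicate 1 or 3, BrM3 shWDR5 replicate 2 or 3, LM2 shCtrl replicate 2 or 3, or LM2 shWDR5 replicate 2 or 3. The log2 fold changes of all 4 kept their sign in every such fit.

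The libraries also differ in how counts depend on the GC content of a gene. The slope of log2 level on GC content ran from -0.267 to 0.239 per 10 percentage points over the 18 libraries. Around the group means, BCL2L1 followed this slope with a Pearson r of 0.885, BAX with 0.832 and BAK1 with 0.695, whereas BCL2 went against it with -0.787 and MCL1 with -0.739 (18 libraries, which share the scaling to a common total). With a GC offset for each library and gene, BCL2L1 was called higher in each of the 3 lines. Its values were 0.32 (adjusted p = 0.0049), 0.29 (0.0075) and 0.27 (0.0085) for LM2, BrM3 and BoM. BAK1 was then also called in BrM3 (0.30, adjusted p = 0.017) and BoM (0.265, 0.031), and MCL1 in BoM (0.21, 0.036). That is 1, 2 and 3 members higher in LM2, BrM3 and BoM, beside 5.37%, 7.54% and 10.4% of all genes under the same offsets. No member was called lower, beside 10%, 14.2% and 15.2%. Values of other members changed either way under the offsets. PMAIP1 went from 0.27 to 0.106 in BoM and from 0.17 to 0.094 on average, and BAD from -0.45 to -0.276 on average. BBC3 went from 0.081 to 0.248 in LM2 and BID from -0.229 to -0.258 in BrM3, and neither was called.

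The 3 pro-survival members were also added up per kilobase in each library. The sum ran from 134.6 to 151.2 CPM per kilobase in LM2 shCtrl and from 158.0 to 169.0 in LM2 shWDR5. In BrM3 it ran from 133.8 to 139.9 and from 155.0 to 158.4, and in BoM from 129.7 to 137.7 and from 144.5 to 156.7. The sums of shCtrl and shWDR5 libraries did not overlap in any line, while BCL2L1 and MCL1 taken alone each overlapped in at least 1 line. The sum is nearly that of BCL2L1 and MCL1, as BCL2 made up 1.30% or less of it on average in shCtrl. Of all single genes, 10.7%, 15.8% and 12.8% lay higher without overlap in LM2, BrM3 and BoM. How often sums of other genes do so was not computed. Around the group means BCL2L1 and MCL1 went in opposite directions, with a Pearson r of -0.838 over 18 libraries. Their deviations also went in opposite directions with the GC slope of the library (r = 0.885 for BCL2L1 and -0.739 for MCL1). The part of that slope in the correlation of these genes was not tested. The summed effectors overlapped in each line, as did the summed BH3-only members. These sums are descriptions of members whose values are given above, and no test was run on them.

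The level of BCL2L1 relative to BAX sets a pore inhibitor against its target. In LM2 the ratio per kilobase was 1.81 ± 0.03 in shCtrl and 2.06 ± 0.08 in shWDR5 (SD, n = 3), from 1.78 to 1.84 and from 1.97 to 2.13, without overlap. In BrM3 it was 2.27 ± 0.23 and 2.78 ± 0.23, from 2.07 to 2.52 and from 2.56 to 3.02, also without overlap. In BoM it was 2.42 ± 0.21 and 2.73 ± 0.64, and the groups overlapped. The ratio of MCL1 to BAK1, the other pair of this kind that was formed, overlapped in every line. In LM2 it was 4.29 ± 0.67 with shCtrl and 3.94 ± 0.18 with shWDR5. The BrM3 values were 2.92 ± 0.21 and 2.85 ± 0.67, and those of BoM 2.03 ± 0.22 and 2.21 ± 0.34. Ratios of other kinds were also formed, namely MCL1 to BCL2L1, BCL2L1 to BCL2, MCL1 to BCL2, BAX to BAK1, MCL1 to PMAIP1 and BCL2L1 to BCL2L11. In each of these the shCtrl and shWDR5 groups overlapped in every line. How often ratios of other genes do not overlap was not computed, and no test was run on the ratios.

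Whether the lines responded differently was tested as the difference between their log2 fold changes. No member was called for any of the 3 pairs of lines, with an adjusted p of 1 throughout, beside 1, 0 and 1 of all genes tested (0.00828%, 0% and 0.00828%) for BrM3 against LM2, BoM against LM2 and BoM against BrM3. At an unadjusted p under 0.05 no member passed either, beside 352, 625 and 349 genes. The point estimates for BCL2L1 were 0.17 lower in BoM than in LM2, with a 95% interval of the difference from -0.54 to 0.21. For MCL1 the difference was 0.17 in the other direction, from -0.08 to 0.42. A difference of about 0.5 in the response of BCL2L1 thus lies inside its interval, so the lines are not shown to respond alike.

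The second question was how the family differs between the lines themselves, seen in shCtrl cells. Between BrM3 and LM2, BAK1 was called higher and BAX and BID lower, 1 and 2 of the 10 members beside 24.2% and 23.4% of all genes. Between BoM and LM2, 3 members were called higher and 3 lower, beside 25.9% and 25.8%. Between BoM and BrM3, 3 were called higher and 1 lower, beside 17.8% and 19.8%. Groups did not overlap for 3 members higher and 3 lower in BrM3 against LM2, beside 30.2% and 28.6% of all genes. They did not for 2 and 2 in BoM against LM2, beside 29.3% and 26.9%, and for 4 and 2 in BoM against BrM3, beside 27.2% and 27.3%. These shares of members rest on 10 genes. Each pair of comparisons shares a group of libraries, so a member that differs in a single line appears in both of that line's comparisons.

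MCL1 separated BoM from the other lines. Its shCtrl libraries held 286.2 to 317.3 CPM in BoM, 419.4 to 460.5 CPM in LM2 and 478.2 to 505.6 CPM in BrM3, without overlap between any of the lines. The log2 difference was -0.55 (SE 0.09, adjusted p = 4.3e-05) for BoM against LM2 and -0.70 (SE 0.09, 6.5e-06) for BoM against BrM3. BCL2L1 ran the other way, with 327.7 to 378.7 CPM in BoM and 230.2 to 248.5 CPM in BrM3 (0.54, SE 0.13, adjusted p = 0.0031). BCL2 was highest in BoM, at 19.05 to 23.4 CPM beside 14.8 to 17.8 in BrM3 and 11.3 to 14.4 in LM2. Its difference was 0.77 (SE 0.14, adjusted p = 0.00023) against LM2 and 0.43 (SE 0.14, 0.024) against BrM3. The call against BrM3 was lost without BoM shCtrl replicate 1 (0.081) or 3 (0.077) or BrM3 shCtrl replicate 2 (0.095) or 3 (0.070).

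The effectors moved in opposite directions between LM2 and BrM3. BAK1 held 32.6, 40.3 and 37.5 CPM in LM2 and 58.8, 63.35 and 56.8 CPM in BrM3, a log2 difference of 0.70 (SE 0.11, adjusted p = 4.7e-05). BAX held 86.5, 102.8 and 112.3 CPM in LM2 and 58.9, 73.9 and 64.0 CPM in BrM3, a difference of -0.62 (SE 0.17, adjusted p = 0.0076). Neither effector overlapped between these lines. The ratio of BAX to BAK1 per kilobase was 2.34 ± 0.20 for LM2, 0.939 ± 0.074 for BrM3 and 1.44 ± 0.16 for BoM (SD, n = 3), with no overlap between the lines. BAK1 was also higher in BoM than in LM2 (0.52, SE 0.11, adjusted p = 0.00067). BAX between BoM and BrM3 did not overlap but missed the threshold (0.45, SE 0.17, adjusted p = 0.052).

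BID was the BH3-only member that set LM2 apart. It held 50.5, 50.7 and 60.3 CPM in LM2 shCtrl, beside 27.9, 33.4 and 35.3 in BrM3 and 28.7, 31.8 and 30.5 in BoM. Against LM2 it differed by -0.74 in BrM3 (SE 0.15, adjusted p = 0.00052) and -0.83 in BoM (SE 0.15, 0.00017). PMAIP1 was higher in BoM, at 88.0, 57.9 and 73.25 CPM, than in BrM3, at 47.1, 46.3 and 44.1 CPM (0.67, SE 0.16, adjusted p = 0.0028). Against LM2 it was called as well (0.44, SE 0.16, adjusted p = 0.025), but the groups overlapped. That call was lost without BoM shCtrl replicate 1 (0.27, adjusted p = 0.17) or 3 (0.056) or LM2 shCtrl replicate 2 (0.12). BCL2L11 was lower in BoM than in LM2 (-0.32, SE 0.12, adjusted p = 0.037), with overlapping groups, and the call was lost without BoM shCtrl replicate 2 (0.15) or 3 (0.11) or LM2 shCtrl replicate 1 (0.099) or 2 (0.099).

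Genes that lie near a member often differed between the lines in the same direction. Neighbours were taken as the tested genes whose start lies within 1 Mb of the start of the member, a window set after the data were seen. Those counted as higher or lower, here and below, had an adjusted p under 0.05. Of all genes, 24.2% were called higher and 23.4% lower in BrM3 against LM2. The shares were 25.9% and 25.8% in BoM against LM2, and 17.8% and 19.8% in BoM against BrM3. Around BAK1 on chromosome 6, 27 of 33 neighbours were higher in BrM3 than in LM2 and 1 was lower, with a median log2 difference of 0.63 beside 0.70 for BAK1. The other comparisons matched less well. In BoM against LM2, 14 of the 33 were higher and 7 lower (median 0.20, BAK1 0.52). In BoM against BrM3, 1 was higher and 23 were lower (median -0.46, BAK1 -0.18). Around BCL2 on chromosome 18, all 9 neighbours were higher in BoM than in LM2, with a median of 0.95 beside 0.77 for BCL2. Around BAX on chromosome 19, 24 of 47 neighbours were lower in BrM3 than in LM2 and 3 were higher (median -0.51, BAX -0.62). Around MCL1 on chromosome 1, 27 of 42 neighbours were lower in BoM than in BrM3 and 2 were higher (median -0.41, MCL1 -0.70).

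BCL2L1 and BID differed by more than the median of their neighbours in the comparisons given here, though in the same direction. Around BCL2L1 on chromosome 20, 2 of 10 neighbours were higher and 2 lower in BoM than in BrM3 (median 0.15, BCL2L1 0.54). In BrM3 against LM2, 2 of the 10 were lower and none higher (median -0.12, BCL2L1 -0.30). Around BID on chromosome 22, 3 of 7 were lower in BoM than in LM2 and none higher (median -0.27, BID -0.83). In BrM3 against LM2, 3 of the 7 were lower and none higher as well (median -0.22, BID -0.74). Only 3 tested genes lay near PMAIP1, also on chromosome 18, and all 3 were higher in BoM than in LM2. DNA copy number was not measured, and its part in the differences between lines was not tested.

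**Figure D3:**
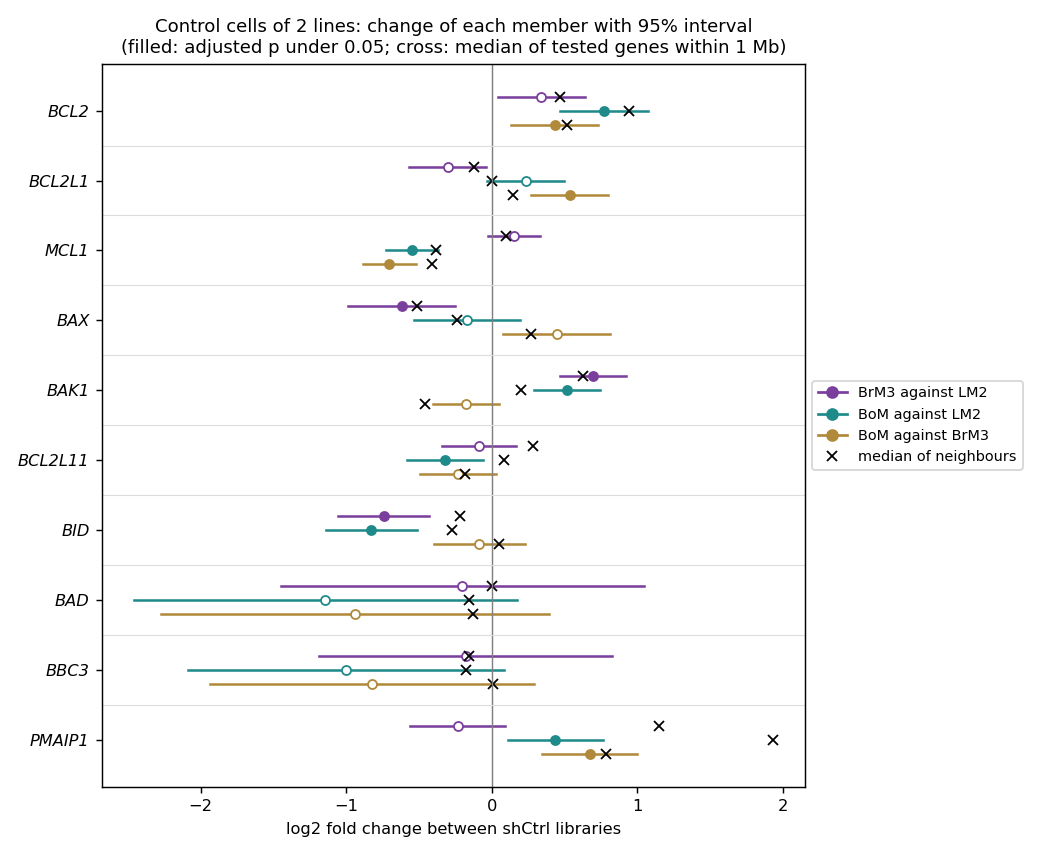
Log2 difference of each member between the shCtrl libraries of 2 lines, with 95% intervals; filled points have an adjusted p under 0.05 and crosses mark the median of the tested genes within 1 Mb. The crosses lie close to the points for BCL2, BAX and, in BrM3 against LM2, BAK1. They lie nearer to 0 than the points for BID in the comparisons with LM2 and for BCL2L1 in BoM against BrM3.

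The genes most like the 4 members called on average were taken by Pearson r of log2 CPM over all 18 libraries, which mixes lines and hairpins and carries no test. The 2 genes most like BAK1 were DAXX (r = 0.972) and WDR46 (r = 0.965), which lie 250 and 283 kb from it on chromosome 6. Those most like MCL1 were CDC42SE1 (r = 0.958), 471 kb away on chromosome 1, and SLC30A1 (r = 0.958), on the same chromosome but far from it. For BCL2L1 they were CAPZB (0.918) and VPS9D1-AS1 (0.917), and for BCL2L11 BAMBI (0.850) and SNX29 (0.842), all on other chromosomes.

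BAD and BBC3 were the least certain members. They are the most GC-rich ones, with 66.3% and 69.7% GC in their longest transcripts, beside 36.7% to 58.9% in the others. BAD exceeded the filter's count threshold in 8 of 18 libraries and BBC3 in 3, while the other 8 members did so in all 18. In LM2 shWDR5, BAD held 1.89, 2.27 and 10.8 CPM, from 76, 150 and 192 counts, and BBC3 held 2.01, 1.67 and 5.35 CPM. In LM2 shCtrl, BAD held 2.12, 4.56 and 9.90 CPM and BBC3 1.02, 2.27 and 4.20 CPM. The same library was highest for both genes in each of these groups. Over all 18 libraries BAD and BBC3 had a Pearson r of 0.886 with each other, and of 0.896 and 0.910 with the GC slope of the library. The coefficient of variation of BAD inside a group reached 101% and that of BBC3 67.6%, beside at most 22.8% in the other 8 members. The GC slope moves with BAD and BBC3, and its part in their spread was not tested.

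**Figure D4:**
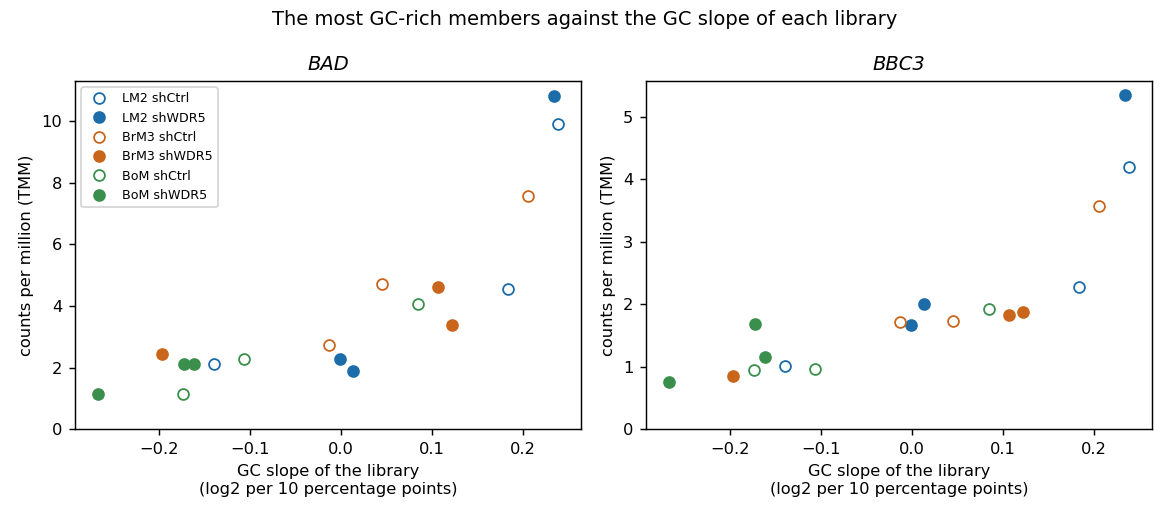
Level of BAD and BBC3 in CPM (linear axis from 0) against the GC slope of each of the 18 libraries; colours are lines, open circles shCtrl and filled circles shWDR5. Both genes are highest in the libraries with the steepest positive slope, whichever hairpin these carry.

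Other genes of the apoptosis pathway were read from lists of 70 genes, of which 56 were tested. With shWDR5, 2 were higher and 2 lower in LM2. BrM3 had 1 higher and 3 lower, and BoM 6 and 4, beside the shares of all genes given above. Averaged over the lines 17 of the 56 were higher and 9 lower, beside 15.6% and 19.9% of all genes. The caspase list held most of the calls inside single lines, and these went both ways. Of its 13 tested genes, 1, 1 and 2 were called higher and 2, 3 and 3 lower (LM2, BrM3, BoM). The list medians were 0.07, 0.03 and 0.04 in the same order. Over the averaged lines 3 of the 13 rose and 4 fell. DFFB, DFFA and CASP10, described next, belong to those that fell. DFFB, the nuclease that cuts DNA once it is released from its inhibitor, fell by 0.56, 0.55 and 0.89 on the log2 scale for LM2, BrM3 and BoM (adjusted p = 0.0059, 0.0051 and 8.2e-05). DFFA, that inhibitor, fell in BrM3 by 0.37 and in BoM by 0.68 (0.036 and 0.00046), and was at -0.29 in LM2 (0.14). CASP10, an initiator caspase of death receptors, fell by 0.63, 0.68 and 1.03 (0.031, 0.014 and 0.00082). The call of DFFB held in each line without any single library. Under 8 other settings it held in 6 in LM2 (adjusted p up to 0.099), 7 in BrM3 (up to 0.12) and 8 in BoM. The call of CASP10 held in 6 of these 8 in LM2 (up to 0.077) and in all 8 in BrM3 and BoM. It was lost in LM2 without LM2 shCtrl replicate 1 or 2 or any 1 LM2 shWDR5 library (up to 0.13). In BrM3 it was lost without BrM3 shCtrl replicate 1 or BrM3 shWDR5 replicate 2 or 3 (up to 0.080). That of DFFA was lost in BrM3 without BoM shCtrl replicate 1 or any 1 BrM3 library (up to 0.11), and it was gained in LM2 without LM2 shCtrl replicate 3 (-0.399, 0.047).

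Of the 13 other BCL2 family genes, 7 were tested. Averaged over the lines BNIP3, a mitophagy receptor, was higher (0.29, SE 0.07, adjusted p = 0.0027) and BCL2L2, which encodes the pro-survival protein BCL-W, was lower (-0.21, SE 0.05, 0.0017; 0.096 without a filter on low counts). BCL2L2 thus went the other way than BCL2L1 and MCL1. Of 5 inhibitor of apoptosis genes tested, BIRC2 was higher on average (adjusted p = 0.032), a call that held in 10 of 18 fits that left out 1 library. It was lost, with values up to 0.072, without BoM shCtrl replicate 2, BoM shWDR5 replicate 1, BrM3 shCtrl replicate 2, BrM3 shWDR5 replicate 1, LM2 shCtrl replicate 2 or 3, or LM2 shWDR5 replicate 1 or 2. In the death receptor list 2 of 10 were higher and 1 was lower, shares near or below those of all genes. They were TNFRSF10D, a decoy receptor, at 0.25 (adjusted p = 0.0016), TNFRSF10B at an adjusted p of 0.019 and the adaptor TRADD, lower, at 0.043. The TRADD call held in 6 of 18 such fits. It was lost, with values up to 0.10, without BoM shCtrl replicate 2 or 3, BoM shWDR5 replicate 1 or 2, BrM3 shCtrl replicate 2 or 3, BrM3 shWDR5 replicate 1 or 3, LM2 shCtrl replicate 2 or 3, or LM2 shWDR5 replicate 1 or 2. Among membrane partners and turnover genes 5 of 11 were higher and 1 lower on average, beside 15.6% and 19.9% of all genes. GSK3B, a kinase that marks MCL1 for destruction, was at 0.31 (adjusted p = 0.00077), the channels VDAC2 and VDAC1 had adjusted p-values of 0.0013 and 0.0049, and USP9X, which removes ubiquitin from MCL1, had 0.012.

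Among transcription factors known to act on the family, 5 of 10 were higher and 2 lower on average, beside 15.6% and 19.9% of all genes. DDIT3 (CHOP), a stress factor that can raise BIM, rose by 0.82 in LM2 (SE 0.16, adjusted p = 0.0040) and 0.62 in BoM (SE 0.16, 0.013), and was at 0.50 in BrM3 (0.052). The BoM call was lost without BoM shWDR5 replicate 3 (0.064), and a BrM3 call was gained without any 1 BoM shWDR5 library or BrM3 shWDR5 replicate 1 (0.0071 to 0.044). Under 8 other settings DDIT3 was called in 8 in BrM3 (0.01 to 0.045) and in 7 in BoM (up to 0.074). FOXO1 was at 0.35 on average (adjusted p = 0.0076) and EGR1 fell by 0.33 (0.0031). The medians over the tested genes of all lists were 0.08, 0.10 and 0.11 in LM2, BrM3 and BoM, beside 0.08, 0.10 and 0.06 for the BCL2 family members.

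**Figure D5:**
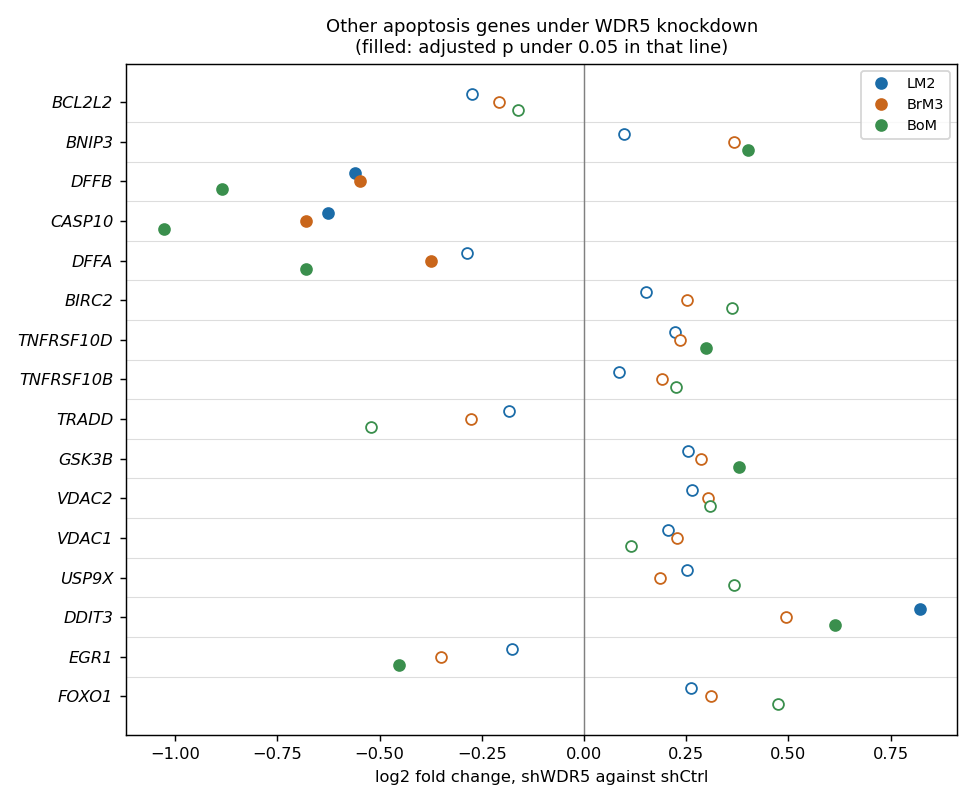
Log2 fold change between shWDR5 and shCtrl in LM2, BrM3 and BoM for listed apoptosis genes called on average over the lines, those with the smallest p-values and at most 4 from each list; filled points have an adjusted p under 0.05 in that line. DFFB and CASP10 are below 0 with filled points in all 3 lines.

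Promoter sequences are shown for BCL2L1, BAK1 and BCL2L11, which were called together on average, and for BAX, which was not called. RefSeq promoters (GRCh38.p14, 250 bases before to 50 after the start) were matched by symbol for 9 of the 10 members, in 15 entries, and not for MCL1. They were searched for the E-box CACGTG, which reads the same on both strands and is written in capitals.
BAX: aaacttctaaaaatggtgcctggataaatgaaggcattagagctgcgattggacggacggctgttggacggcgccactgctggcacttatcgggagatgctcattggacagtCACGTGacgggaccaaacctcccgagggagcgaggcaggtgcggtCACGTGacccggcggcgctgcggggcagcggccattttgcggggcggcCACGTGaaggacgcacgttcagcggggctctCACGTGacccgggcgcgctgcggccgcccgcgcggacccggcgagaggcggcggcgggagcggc
BCL2L1: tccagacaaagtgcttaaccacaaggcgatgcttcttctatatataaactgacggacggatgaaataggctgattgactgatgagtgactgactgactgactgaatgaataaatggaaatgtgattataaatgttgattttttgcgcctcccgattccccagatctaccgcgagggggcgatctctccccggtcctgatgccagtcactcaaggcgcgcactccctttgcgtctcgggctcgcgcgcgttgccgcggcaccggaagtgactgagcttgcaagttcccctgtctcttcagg
BAK1: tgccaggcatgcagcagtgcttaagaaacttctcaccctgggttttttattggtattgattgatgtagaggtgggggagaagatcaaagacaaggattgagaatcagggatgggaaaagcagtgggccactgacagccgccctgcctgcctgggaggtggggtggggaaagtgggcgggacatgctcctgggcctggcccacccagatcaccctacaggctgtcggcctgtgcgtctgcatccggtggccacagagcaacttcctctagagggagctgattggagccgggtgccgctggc
BCL2L11: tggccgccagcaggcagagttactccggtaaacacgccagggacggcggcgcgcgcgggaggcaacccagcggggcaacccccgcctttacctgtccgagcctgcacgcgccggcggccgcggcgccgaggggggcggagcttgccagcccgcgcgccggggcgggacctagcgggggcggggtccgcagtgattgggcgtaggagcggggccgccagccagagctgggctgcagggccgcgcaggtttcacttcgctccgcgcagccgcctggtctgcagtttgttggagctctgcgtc

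The BAX window (chr19:48954625-48954924, plus strand) holds 4 copies of CACGTG. None is in the windows of BCL2L1 (chr20:31723914-31724213, minus, the first of its 2 entries), BAK1 (chr6:33580227-33580526, minus) or BCL2L11 (chr2:111120664-111120963, plus). The letters occur in promoters of 3 member genes, BAX, BID and BBC3, and in 4 of the 15 member entries, beside 7.26% of all 35116 entries. The BID entries chr22:17773934-17774233 and chr22:17773993-17774292 overlap and hold the same copy, so that site is counted more than once. None of the 3 genes was called with shWDR5 in any line or on average in the main fit. For BBC3 the standard errors were 0.49, 0.52 and 0.58 in LM2, BrM3 and BoM, so its change could not be resolved. BID was called lower on average in 2 of 7 alternative settings and without LM2 shWDR5 replicate 3 (-0.245, adjusted p = 0.017).

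Some members share exonic bases with other genes, and the strand setting of the counting is not stated. The antisense gene ABALON covers 41.3% of the exons of BCL2L1, GPR137 covers 23.7% of those of BAD and MIR4435-2HG 10.8% of those of BCL2L11, each on the opposite strand. The pseudogene BAK1P1 shares 12.5% of the 50-base words of BAK1. Reads of these pairs may have been split or joined in the deposited counts, and their part in the values of BCL2L1, BAK1 and BCL2L11 was not tested.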

How the data were processed

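The authors aligned paired-end reads of stranded mRNA libraries to hg38 with STAR 2.7.0 and deposited raw counts per gene. CASAVA 1.8.2 is also named in the submitters' processing notes. The second deposited table, with the authors' DESeq2 log2 fold changes and adjusted p-values, was not used. Count columns were matched to samples by line, hairpin and replicate number, the shCtrl columns by elimination. The number of per-sample columns not used was 0. The filter kept a gene whose largest normalized count was over 145.7, the value at which the Jaccard index between replicates peaked (0.970). This left 12081 genes.

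Counts were scaled by TMM and fitted with edgeR 4.0.16 (R 4.3.3) in a single quasi-likelihood model of 6 groups with 12 residual degrees of freedom. Benjamini-Hochberg adjusted p-values under 0.05 were called. Standard errors were derived from the F statistic. Replicate pairs differed by more than sampling noise (chi-square per gene 5.15 to 90.6). The procedure was tested on simulated data. Levels per kilobase use exon lengths of GENCODE release 44. GC offsets were loess fits (span 0.5). Only in BoM did the deviations of same-numbered libraries from the group means correlate over 0.1 in all 3 pairs. The replicate block paired them in all 3 lines within a single model. Alternatives were DESeq2 1.42.0, other scalings and filters, a replicate block, GC offsets, each line alone and leaving out each library. The members and lists were chosen with earlier results of these data known. Named list genes are the 4 of each list with the smallest p-values among those called on average, the most alike genes are the 2 with the highest r for each member called on average, and all members are named. Some of these list genes are not reported here.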

Additional observations from a re-analysis of the deposited data

How the results depend on the processing

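Of the 17 member differences that were called, 113 of 119 values under other settings stayed called, 6 lost the call and 0 changed sign. Of 53 that were not called, 41 of 400 values gained a call and 21 changed sign. Without a filter on low counts, the averaged members called fell from 4 to 2 (BAK1 0.204, adjusted p = 0.052, and BCL2L11 0.213, 0.11) and 1 was called lower, and for BoM against BrM3 3 were called lower in place of 1, while BCL2 lost its call (0.402, 0.060). BCL2L11 in BoM against LM2 also lost its call without a filter (-0.318, 0.16). DESeq2 called 1 member higher in BoM, as did edgeR with median-of-ratios size factors, and 2 higher in BrM3 against LM2. With GC offsets 1, 2 and 3 members were called higher for LM2, BrM3 and BoM, and 2 in BrM3 against LM2, and 2 were lower in BoM against BrM3. The cause of these changes was not tested.

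Same-numbered libraries of a line had correlations of their deviations between -0.178 and 0.729, over 0.1 in 7 of 9 pairs. All 3 pairs were over 0.1 in BoM (0.566, 0.323 and 0.145) and not in LM2 or BrM3. The replicate block was fitted over all 3 lines at once, and no fit paired BoM alone. With a replicate block 1 member was called higher in LM2 (BCL2L1 0.307, adjusted p = 0.041), 1 in BoM (MCL1 0.238, 0.035) and 5 on average, where PMAIP1 was added (0.172, 0.046), and 2 were called lower on average (BID -0.189, 0.015, and BAD -0.441, 0.034). BCL2L11 in BoM against LM2 lost its call (-0.192, 0.33). The block with GC offsets called 2, 2 and 4 members higher in LM2, BrM3 and BoM, 1 lower on average and 3 higher in BrM3 against LM2, and BCL2L11 in BoM against LM2 was not called (-0.266, 0.097).

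The values that changed sign were all small or poorly resolved and none was called. BCL2 was at 0.003 in LM2 and 0.001 in BoM with filterByExpr, and on average at -0.003 with GC offsets and -0.006 with GC offsets and the replicate block. BAX was at 0.007 and 0.001 in BrM3 under the same pair of settings. In BoM it was at 0.009 with DESeq2, 0.008 with median-of-ratios factors, 0.017 with filterByExpr, 0.003 without a filter, 0.142 with GC offsets and 0.123 with both. BBC3 was at 0.177 and 0.150 in BoM and at 0.050 and 0.059 on average with GC offsets, without and with the block. For BrM3 against LM2, BAD was at 0.384 with the block and 0.167 with both, and BBC3 at 0.133 with the block. BAX for BoM against LM2 was at 0.014 with GC offsets, and BCL2L11 for BoM against BrM3 at 0.048 with the block.

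Leaving out each library gave 0 to 1 members higher in BrM3 and in BoM, 0 higher in LM2, 1 to 4 higher and 0 to 2 lower on average, and 0 for differences between lines. Between lines it gave 1 to 2 higher and 2 to 3 lower for BrM3 against LM2, 2 to 3 and 2 to 3 for BoM against LM2, and 2 to 4 and 1 for BoM against BrM3. Calls gained were BAK1 in BrM3 without BrM3 shWDR5 replicate 1 (0.336, 0.043), MCL1 in BoM without BoM shWDR5 replicate 2 (0.308, 0.035) or BrM3 shWDR5 replicate 1 (0.241, 0.035), and on average BID (-0.245, 0.017) and BAD (-0.831, 0.041) without LM2 shWDR5 replicate 3 and PMAIP1 (0.234, 0.044) without BoM shCtrl replicate 1. For BrM3 against LM2, BCL2 was called without BoM shWDR5 replicate 1 (0.343, 0.034) or 3 (0.343, 0.037) or LM2 shCtrl replicate 1 (0.428, 0.033), and BCL2L1 without BrM3 shWDR5 replicate 1 (-0.30, 0.036) or LM2 shCtrl replicate 1 (-0.409, 0.015). BBC3 was called for BoM against LM2 without LM2 shCtrl replicate 1 (-1.314, 0.034), and BAX for BoM against BrM3 without BoM shCtrl replicate 1, BoM shWDR5 replicate 1 or 3, BrM3 shWDR5 replicate 1 or LM2 shCtrl replicate 1 (0.449 to 0.530). Ranges that crossed 0 in LM2 were -0.111 to 0.058 for BCL2, -0.030 to 0.091 for BCL2L11, -0.299 to 0.011 for BID, -1.454 to 0.420 for BAD, -0.536 to 0.693 for BBC3 and -0.021 to 0.208 for BNIP3. In BrM3 they were -0.181 to 0.099 for BAX and -0.090 to 0.209 for PMAIP1, and in BoM -0.176 to 0.104 for BCL2, -0.195 to 0.142 for BAX and -0.486 to 0.291 for BBC3. On average they were -0.035 to 0.059 for BCL2 and -0.047 to 0.067 for BAX, and for BrM3 against LM2 -0.629 to 0.531 for BAD and -0.611 to 0.432 for BBC3.

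Over all genes, higher and lower calls moved from 179 and 577 to 649 and 1211 in LM2 with GC offsets, from 347 and 951 to 911 and 1716 in BrM3, and in BoM from 653 to 1259 higher. DESeq2 called 409, 638 and 1072 higher, the block 466, 760 and 1358 higher and 968 and 1517 lower in LM2 and BrM3. GC offsets with the replicate block called 1377, 1547 and 2052 higher, 1772, 2313 and 2339 lower and 3247 higher on average. A line fitted alone gave 54 and 196 in LM2 and 142 and 600 in BoM. Limits are 3 libraries a group, a single WDR5 hairpin, and BAD and BBC3 near the filter.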
